A study of Mus musculus with 2 samples.

Results

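miR-142a is the mouse form of miR-142, a microRNA (miRNA) gene that is transcribed in blood cells and yields a mature miRNA from each arm of its hairpin. Described here are these 2 mature miRNAs, miR-142a-5p and miR-142a-3p, taken as the rows of those names, of 1125 miRNAs listed in at least 1 of 2 small RNA libraries. They were selected on their read counts in these libraries, because the scaled levels of the 2 arms differ in opposite directions. All values of the Th17 to Th0 contrast below are therefore descriptions, and none is a test. The 2 libraries come from naive CD4+CD62L+ helper T cells of the spleen of female C57BL/6 mice, cultured in medium with 10% serum. The Th0 culture, the control, received anti-CD28 at 1 µg/ml and antibodies against IL-4 and IFN-γ at 5 µg/ml each. The Th17 culture received the same 3 antibodies with 2 more, against IL-2 (5 µg/ml) and IL-12 (5 µg/ml), and the cytokines IL-6 and IL-23 (40 ng/ml each), IL-1β (10 ng/ml) and TGF-β (2 ng/ml), for 6 to 7 days. Time in culture and the Th17 conditions cannot be told apart, because the sources used here give no duration for Th0. The labels speak of triplicates, but 1 column of reads per group was analysed, and the way triplicates entered it was not given in the sources used here. With 1 library per group, differences have no replicate check.

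A miRNA hairpin is cut by the nuclease Dicer into a duplex of its 5p and 3p arms, and usually 1 arm is kept in an Argonaute protein while the other is degraded. The kept arm finds messenger RNAs mainly by pairing through its seed, bases 2 to 8, so the arms of a hairpin act on different messages. miR-142 is a standard marker of blood-derived cells, and mice without it have broad defects of lymphocytes and other blood lineages. Both of its arms are known to be loaded and active. In T cells the 3p arm is known to target adenylyl cyclase 9, an enzyme that makes cyclic AMP, and the 5p arm is known to target Pde3b, an enzyme that breaks it down.

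In GRCm38 (mm10), the Mir142 hairpin of 64 bases lies on the plus strand of chromosome 11, from 87756864 to 87756927. GENCODE M21 places it in the intron between exons 1 and 2 of its noncoding host gene Mir142hg (87755577 to 87757270, plus strand). The next annotated gene downstream on that strand is Tspoap1, which starts at 87760541. A second annotated hairpin, Mir142b, spans the same bases on the minus strand (87756841 to 87756955). It carries a single mature miRNA in the deposited files, miR-142b. The sequences are from RefSeq (GRCm38.p6), in which both members were found by name. They are shown because the arms carry different seeds and because miR-142b resembles one arm and is antisense to the other. In the mature miRNAs the capitals mark the seed, and in the hairpins they mark the mature miRNAs.
miR-142a-5p: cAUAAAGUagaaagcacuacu
miR-142a-3p: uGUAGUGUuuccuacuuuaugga
miR-142b: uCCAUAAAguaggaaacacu
Mir142 hairpin: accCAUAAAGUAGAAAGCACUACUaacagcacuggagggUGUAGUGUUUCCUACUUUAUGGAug
Mir142b hairpin: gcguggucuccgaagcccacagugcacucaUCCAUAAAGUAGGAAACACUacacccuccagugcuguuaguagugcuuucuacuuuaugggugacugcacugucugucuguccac

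miR-142a-5p takes bases 4 to 24 of its hairpin and miR-142a-3p bases 40 to 62, with 15 bases between them. In the minimum free energy fold of the hairpin (-26.9 kcal/mol), 19 of the 21 bases of the 5p arm pair with the 3p arm. Among 1679 mature miRNA names in the RefSeq table, 0 others share the seed of miR-142a-5p and 0 others that of miR-142a-3p. Within that table each arm thus stands alone in its seed family. The search covers that table only, in which 935 of the 1125 listed miRNAs matched by name. All 20 bases of miR-142b are the reverse complement of a stretch of miR-142a-3p. miR-142b is also a close copy of miR-142a-5p: over an overlap of 18 bases, 16 match. The substitutions are A11G and G14A, with the base of miR-142a-5p first and positions counted from 1 at its 5′ end. miR-142b starts 2 bases earlier than that arm, which gives it a different seed.

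**Figure D1:**
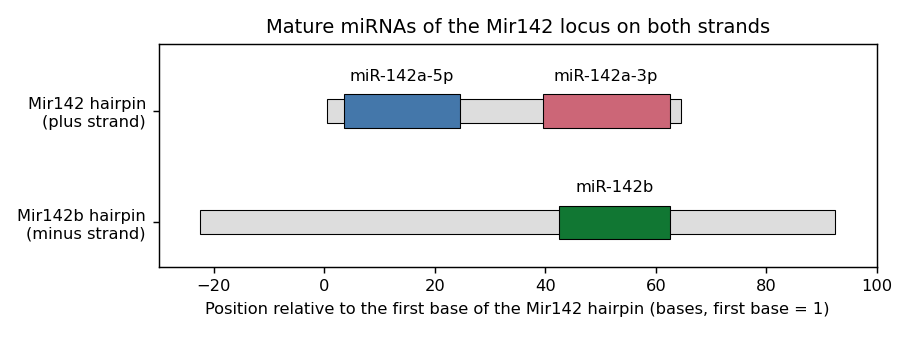
Positions of the mature miRNAs within the Mir142 hairpin (plus strand) and the Mir142b hairpin (minus strand), in bases from the first base of the Mir142 hairpin. Grey bars are hairpins and coloured bars mature miRNAs; miR-142b lies opposite miR-142a-3p.

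The 5p arm was among the most abundant miRNAs of both libraries and was slightly higher in Th17, while the 3p arm was nearly 2-fold lower. Values are CPM, reads divided by the listed reads of the library and multiplied by 1000000. miR-142a-5p had 487665 reads in Th0, or 58347 CPM, and 789153 reads in Th17, or 65898 CPM. It was 1.13-fold higher in Th17 (95% interval 1.125 to 1.133, exact and conditional on both counts). Like all intervals here, this one covers the counting error of reads only and not the spread between cultures. Reads amplified by PCR and carrying no molecular identifier can be copies of 1 molecule, which the interval does not cover either. The 5p arm stood at rank 6 in Th0, between miR-22-3p and miR-16-5p, and at rank 5 in Th17, between miR-191-5p and miR-92a-3p. The counting intervals of these neighbours did not overlap with its own in either library.

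miR-142a-3p had 18337 reads in Th0, or 2194 CPM, and 13802 reads in Th17, or 1153 CPM. It was 1.90-fold lower in Th17 (1.86 to 1.95). Its absolute read number was lower even though the Th17 library was deeper, with 11975371 listed reads against 8358010. The arm moved from rank 45 to rank 70. In Th0 its neighbours miR-30b-5p (2431 CPM) and miR-298-5p (2047 CPM) were separated from it beyond counting error. In Th17 it could not be ordered against miR-378c (1164 CPM), miR-21a-3p (1160 CPM) and miR-361-5p (1136 CPM), whose intervals overlap its own (1133 to 1172 CPM).

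On the log2 scale the Th17 to Th0 ratio was 0.18 for the 5p arm (0.170 to 0.181) and -0.93 for the 3p arm (-0.961 to -0.897). As background, among the 298 miRNAs that averaged 10 CPM or more, 40.6% had an interval above 0 and 47.7% an interval below 0. An interval to one side of 0 is thus the common case at this depth. The median log2 ratio of the 298 was -0.080. The 3p arm did not reach the 2-fold mark, which 13.1% of the 298 passed on the lower side and 6.71% on the higher side. The small excess of the 5p arm depends in size on the scaling: it was 0.25 with median-of-ratios size factors and 0.12 with a total that omits the most abundant miRNAs.

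**Figure D2:**
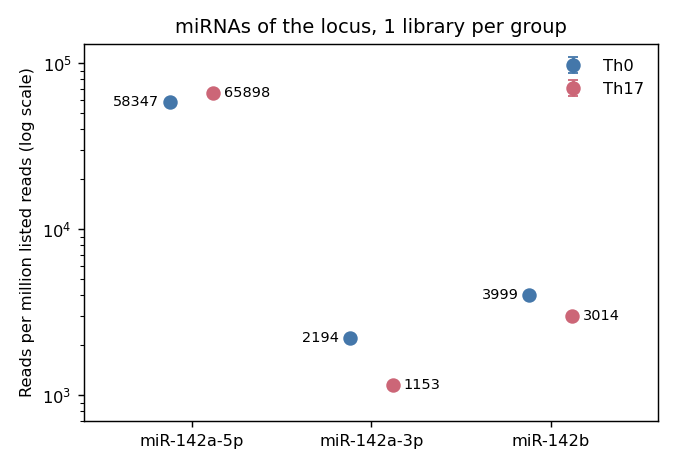
CPM (log axis) of miR-142a-5p, miR-142a-3p and miR-142b in the Th0 and the Th17 library; bars, smaller than the points, are exact 95% counting intervals. The 5p arm is higher in Th17 (58347 to 65898) and the 3p arm lower (2194 to 1153), as is miR-142b (3999 to 3014).

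Since the 5p arm holds nearly all reads of the hairpin, the output of both arms together followed it. The summed arms took 6.05% of listed reads in Th0 (6.04 to 6.07%) and 6.71% in Th17 (6.69 to 6.72%), a 1.11-fold higher level (1.104 to 1.111). The 5p share of the hairpin's reads was 96.4% in Th0 (exact binomial interval 96.32 to 96.43%, 506002 reads) and 98.3% in Th17 (98.25 to 98.31%, 802955 reads). This is a difference of 1.91 percentage points. Seen from the minor arm, the 3p arm held 3.62% (3.57 to 3.68%) in Th0 and less in Th17, 1.72% (1.69 to 1.75%). There were 26.6 reads of the 5p arm per read of the 3p arm in Th0 and 57.2 in Th17, a 2.15-fold difference (2.10 to 2.20). These shares need no library scaling. Adapter ligation is known to favour some RNA ends over others, so reads of different sequences are not proportional to molecules. A bias equal in both libraries would cancel in the 2.15-fold difference of the arm ratio. It would not cancel in the shares or in their difference in percentage points.

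The antisense miRNA miR-142b, which the rule did not use, was also lower in Th17. It had 33422 reads in Th0, or 3999 CPM, and 36090 in Th17, or 3014 CPM, which is 1.33-fold lower (1.31 to 1.35). In both libraries it outnumbered the 3p arm, by 1.82 reads to 1 in Th0 and 2.61 to 1 in Th17. Per read of miR-142b there were 14.6 reads of the 5p arm in Th0 and 21.9 in Th17. Relative to each other, miR-142b was thus lower by less than the 3p arm, with a log2 change of 0.52 (0.482 to 0.559) in miR-142b reads per 3p read.

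Whether the authors counted by strand, and how many mismatches they allowed, was not given in the sources used here. Without strand, reads of miR-142a-3p and of miR-142b cannot be told apart. With mismatches allowed, reads of miR-142a-5p and miR-142b could have been exchanged, so all 3 values are uncertain to that extent. With the miR-142b reads added to the 3p arm, the sum went from 6193 CPM in Th0 to 4166 CPM, 1.49-fold lower (1.468 to 1.505), and the 5p share was 90.4% (90.33 to 90.48%) and 94.1% (94.00 to 94.10%). With them added to the 5p arm, the sum was 1.11-fold higher (1.101 to 1.109) and the share 96.6% and 98.4%. The arms differed in opposite directions under either assignment, which was chosen after the data were seen.

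Other hairpins give the frame for these values. Of 78 hairpins with exactly 1 listed 5p and 1 listed 3p miRNA, both at a mean of at least 10 CPM, 50 had both arms in the same direction with intervals that exclude 0. In 12 hairpins, or 15.4%, the arms went in opposite directions, and in 8 of these, or 10.3% of the 78, the 5p arm was higher and the 3p arm lower in Th17, as for mir-142a. The pattern used to choose mir-142a is therefore not confined to it. Among the 26 hairpins with both arms at 100 CPM or more, 5 had opposite arms (19.2%): mir-142a, let-7d, mir-98, mir-210 and mir-30e. The first 4 had the 5p arm higher and mir-30e the 3p arm higher. The log2 ratio of the 5p arm was 0.034 for let-7d and 0.038 for mir-98. That of the 3p arm of mir-210 was -0.063. Other scalings moved log2 ratios by -0.057 to 0.078, so the sign of these arms depends on the scaling.

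**Figure D3:**
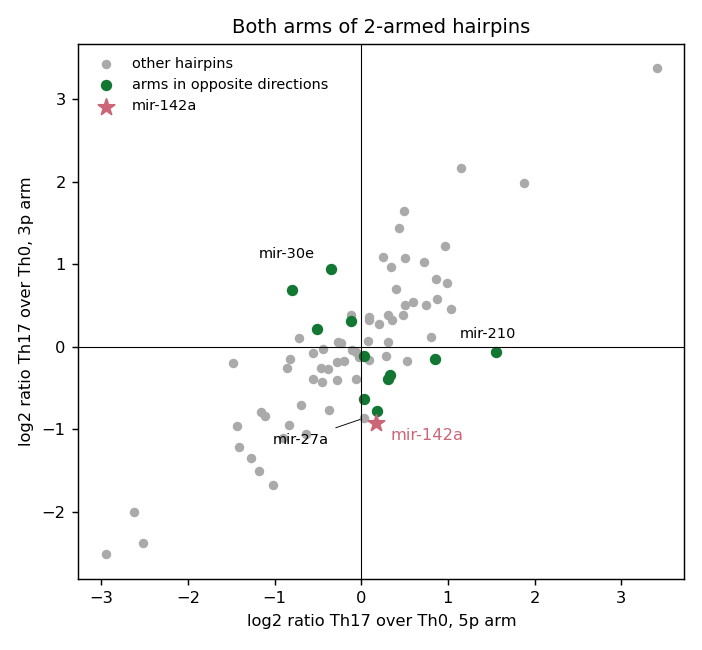
log2 ratio Th17 over Th0 of the 5p arm (horizontal) and 3p arm (vertical) for 78 hairpins with both arms at a mean of at least 10 CPM; green points are hairpins whose arms differ in opposite directions with both intervals excluding 0. Most points follow the diagonal, and mir-142a (star, 0.18 and -0.93) lies below it.

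The nearest hairpins to mir-142a were found by distance in the plane of both arms' log2 ratios, among the 26 with at least 100 CPM and over only these 2 libraries. The nearest was mir-27a (distance 0.16). Its major arm miR-27a-3p had 5635 CPM in Th0 and 3088 CPM in Th17, while miR-27a-5p had 165 and 168 CPM and its interval spanned 0. The next was mir-98 (0.33), a let-7 family hairpin, with log2 ratios of 0.038 for the 5p arm and -0.63 for the 3p arm. After it came mir-130b (0.56), let-7d (0.83) and mir-21a (0.83). mir-142a and mir-27a had nearly the same position with the major arm on opposite sides: the 5p share was 2.84% and 5.15% for mir-27a. For mir-142a the lower arm was thus the minor one, and for mir-27a the major one.

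In percentage points the shift of mir-142a was moderate. It ranked 14 of the 26 by size and 7 of the 26 toward the 5p arm. Larger shifts toward 5p were those of mir-210 (6.24 points), mir-872 (4.33), mir-130b (4.29), mir-27a (2.31), mir-98 (2.28) and let-7d (2.03). The largest toward 3p were mir-18a (-20.3), mir-106b (-10.2), mir-361 (-7.52), mir-30e (-5.27) and mir-28a (-3.72). A share near 100% can move by few points, however. By the change in 5p reads per 3p read, mir-142a (2.15-fold) ranked 4 of 26 by size. In the direction of the 5p arm it came after mir-210 (3.07-fold) and before mir-27a (1.86-fold). A change of at least 2-fold in this ratio, in either direction, was found in 5 of the 26 (19.2%) and in 8 of the 78 (10.3%).

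**Figure D4:**
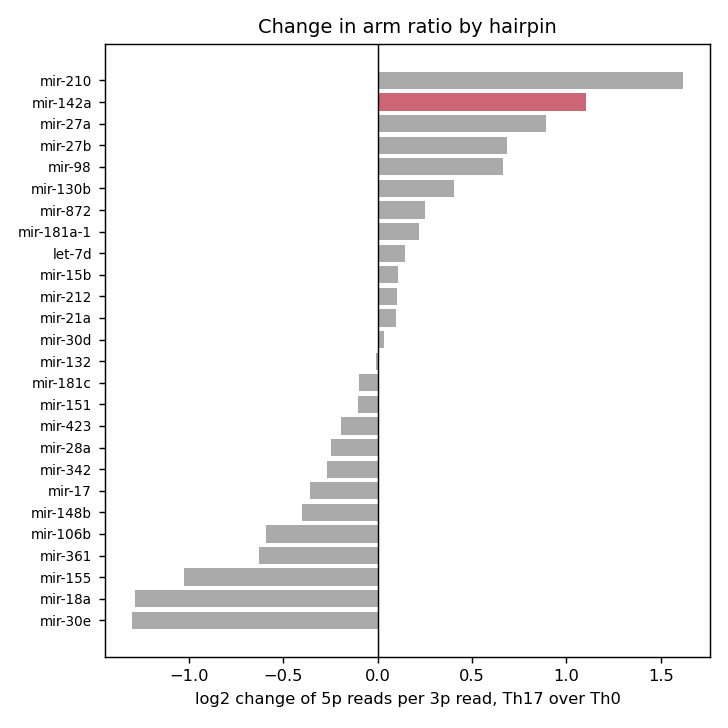
log2 change in 5p reads per 3p read between Th17 and Th0 for the 26 hairpins with both arms at a mean of at least 100 CPM, sorted; bars start at 0 and positive values are a shift toward the 5p arm. mir-142a (coloured, 1.10) is next to mir-210 at the upper end.

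Of the 78 hairpins, 21 had a 5p share of at least 95% in both libraries, as mir-142a did. Among these 21 the 3p arm of mir-142a was the most abundant minor arm, with a mean of 1673 CPM. The minor arm of mir-21a, the next, had 1212 CPM. Within the 21, the arm ratio of 2 hairpins changed at least 2-fold: mir-142a toward the 5p arm and mir-155 toward the 3p arm, by a log2 change of -1.03. The limit of 95% in both libraries leaves out hairpins that fell below it in Th17. An example is mir-30e, with a 5p share of 96.0% in Th0 and 90.8% in Th17 and a log2 change of -1.30. mir-155, the hairpin of an activation-induced miRNA, kept a 5p share above 99% in both libraries (99.6% and 99.2%).

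The 5p arm was set beside 10 other miRNAs known from blood cells, of which 9 had a mean of at least 10 CPM. Of the 9, 5 were higher in Th17 and 4 lower by intervals that exclude 0, against 40.6% higher and 47.7% lower among all 298. Their median log2 ratio was 0.31, the value of miR-150-5p, against -0.080 over all 298. The list was chosen with earlier results of these data known, so this comparison is a description and no test. miR-155-5p, which promotes inflammatory T cell responses, had 14346 CPM in Th0 and 31749 CPM in Th17. miR-181a-5p, a regulator of signalling from the T cell receptor, had 11156 and 22098 CPM. miR-150-5p, a miRNA of mature lymphocytes, had 9910 and 12282 CPM. miR-342-3p, which is hosted by the Evl gene, was lower, with 6349 and 3536 CPM. miR-21a-5p, induced by T cell activation, was more abundant than miR-142a-5p in both libraries, with 153148 and 150405 CPM, and so was miR-191-5p, with 73569 and 68378 CPM. These 2 differed less between the libraries than miR-142a-5p did, and the 4 named before them were less abundant and differed more.

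Both arms of 6 hairpins from this list reached a mean of 10 CPM. Of these 6, 1 had arms in opposite directions, mir-150, against 12 of all 78 hairpins (15.4%). The log2 ratio of mir-150 was 0.31 for the 5p arm and -0.39 (-0.546 to -0.234) for the 3p arm. Its 5p share was 99.2% in Th0 and 99.5% in Th17, so its 3p arm was rarer than that of mir-142a (76.9 and 58.7 CPM for miR-150-3p). The other 5 did not meet the rule for opposite arms. Among them, mir-155, mir-181a-1, mir-21a and mir-342 had both arms in the same direction by intervals that exclude 0. For mir-191 the interval of the 3p arm spanned 0.

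miR-142 is made by blood cells of all lineages, so miRNAs of other cells were read in the same libraries, from lists with T cell, myeloid, erythroid, megakaryocyte or endothelial, epithelial, stromal and other tissue markers. Apart from the members, the T cell list holds miR-150-5p, miR-155-5p and miR-181a-5p, whose values are given above. The myeloid markers miR-223-3p and miR-223-5p summed to 3.35 CPM in Th0, where the latter is at 0, and 6.93 CPM in Th17. That is 0.00553% and 0.0103% of the reads of both miR-142a arms. The 3 erythroid markers summed to 163 and 169 CPM, nearly all of it miR-486a-5p, with miR-144-3p at 0 in Th0. The megakaryocyte or endothelial pair miR-126a-3p and miR-126a-5p was lower in Th17 (191 and 85.9 CPM). The 5 epithelial markers summed to 387 and 208 CPM, with 0 of 5 at 0, and 1 of them, miR-200c-3p, was higher in Th17 (23.1 and 31.7 CPM). The 4 stromal markers summed to 2.15 and 19.6 CPM, and the 5 liver, muscle and neural markers to 14.1 and 5.85 CPM, with 3 of 5 at 0 in Th0 and 1 of 5 in Th17. No list outside T cells reached 1% of the miR-142a reads in either library. In bulk samples fewer cells of a type and less RNA per cell cannot be told apart, and the part of other cells in the arm values was not tested.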

How the data were processed

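Small RNA from Th0 and Th17 cultures, with 1 column of reads per group, was sequenced on an Illumina instrument after TruSeq small RNA preparation and gel selection, per the labels' protocols. For each library the authors deposited whole-number read counts per mature miRNA and TPM values; the deposited TPM equal the counts divided by a total (9072995 reads for Th0, 13070648 for Th17) above the listed sum and scaled to 1000000. The build is mm10, per the submitters' processing notes. The sources used here do not state the aligner, miRNA release, strand use or mismatches.

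The counts of each library were divided by the listed sum (8358010 and 11975371 reads), and a miRNA not listed in 1 library was taken as 0. Ratios have exact conditional and shares exact binomial (Clopper-Pearson) 95% intervals; arm ratios have normal intervals on the log scale. Only the ratio intervals were tried on simulated counts, not those of shares or arm ratios. The simulation held counting error alone, the error these intervals assume, so it says nothing about PCR copies or the spread between cultures. Precursors that share a mature miRNA were joined; 388 of 705 groups had 1 listed 5p and 1 listed 3p arm. Folding used RNAfold 2.7.2; TMM factors came from edgeR 4.0.16. Alternatives were other scalings, 0.5 CPM added, other minimum levels and the deposited TPM. No statistical test between conditions was possible. Of 1125 listed miRNAs, 935 matched a RefSeq name. The members and lists were chosen with earlier results of these data known. Named were the members, other miRNAs of the locus, up to 6 of a blood list and neighbours in rank. Also named were the 5 nearest hairpins and the 5 with the largest share change in each direction. Other hairpins (mir-155, mir-30e and mir-210 by arm direction or ratio, mir-150, let-7d, and further hairpins of the blood list) were named after their values were seen.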

Additional observations from a re-analysis of the deposited data

How the results depend on the processing

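The 5p arm stayed higher, the 3p arm lower and the 5p share higher in Th17 under every alternative run. The log2 ratio of miR-142a-5p was 0.184 with TMM factors, 0.254 with median-of-ratios size factors, 0.118 without the most abundant miRNAs in the total (the 10 of either library, 11 in all), 0.186 without both arms in it, 0.168 from deposited TPM and 0.144 with miR-142b added. In the same order the summed arms gave 0.156, 0.226, 0.090, 0.157, 0.139 and 0.118. miR-142a-3p moved beyond its counting interval to -0.850 with median-of-ratios factors, -0.986 without the most abundant and -0.572 with miR-142b added. With miR-142b counted as 3p, the 5p share was 90.4% in Th0 and 94.1% in Th17, a difference of 3.65 points; counted as 5p it was 96.6% and 98.4%, a difference of 1.75 points. Both uses of miR-142b were chosen after seeing the data. Hairpins with opposite arms numbered 12, between 10 and 14 under other scalings, 14 at a minimum of 1 CPM and 5 at 100 CPM. mir-142a was among them each time. That is no check, because it was chosen for this pattern and its 3p arm averaged 1673 CPM. Without a minimum, 182 miRNAs were higher and 220 lower; at 100 CPM, 71 and 78. The hairpins counted were 148 at 1 CPM, 78 at 10 CPM and 26 at 100 CPM. The number of miRNAs counted differs too, with 1125 listed without a minimum and 298 at 10 CPM. That number is not given here for 100 CPM, so these counts cannot be read as a change in the share called. Why the counts differ between minimum levels was not tested. No paired analysis was possible because each group has 1 library. The choice of scaling moved log2 ratios by up to 0.078, more than the counting error of miR-142a-5p. Over the 298 miRNAs at 10 CPM or more the median counting interval reached 0.13 to either side. The spread between cultures is unknown.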
